A study of Arabidopsis thaliana with 12 samples.

Results

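The tau and phi glutathione transferases of Arabidopsis thaliana roots were followed under arsenate. The set holds 41 genes, taken by locus identifier from the 33557 genes of the expression table: the 28 tau genes GSTU1 to GSTU28 and the 13 phi genes GSTF2 to GSTF14. Seedlings of the ecotype Col-0 grew for 7 days with 1 mM phosphate and then for 2 days without phosphate, so every group had met phosphate starvation. For the treatment the roots stood in liquid medium lacking phosphate, and this held 30 µM arsenate, As(V), or was the mock. Messenger RNA was sequenced after 1.5 h, 6 h and 24 h, which gives As(V) 1.5 h, mock 1.5 h, As(V) 6 h, mock 6 h, As(V) 24 h and mock 24 h. Each of these 6 groups has 2 libraries, and each library was made from 60 seedlings. The labels do not say that the 2 libraries of a group came from separate cultures, so p-values measure only the spread between these samples.

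Glutathione transferases join the tripeptide glutathione to reactive or foreign compounds, and the conjugates are then moved into the vacuole by ABC transporters of the C subfamily. The tau and phi classes are plant-specific, have many members that arose by tandem duplication, and are widely used as markers of chemical and oxidative stress. Some members also bind or carry plant compounds, and arsenate is of interest here because plants hold reduced arsenic in thiol complexes built from glutathione.

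Levels are given in FPKM (fragments per kilobase of gene and per 1e6 reads), which is per length and allows genes to be compared. Spacing of the low deposited values gave an estimate of 13.09 to 16.39 M gene reads in each library (M, in units of 1e6 reads). At a length of 1500 bases, 1 read stood for 0.0454 to 0.1237 FPKM, and limits from this depth cover counting error only. Replicates had a Pearson r of 0.9823 to 0.9892 over genes, lowest between the mock 24 h libraries. All 10 root marker genes reached 1 FPKM in all 12 libraries. Their summed level was lower under arsenate, at 264 to 549 FPKM in As(V) libraries and 796 to 1245 FPKM in mock libraries. The 8 leaf markers summed to 43.7 to 299 FPKM in As(V) libraries and to 84.1 to 211 FPKM in mock libraries. What part the shifts of these markers have in the results below was not tested. In whole roots, fewer cells of a type and less RNA per cell cannot be told apart.

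The deposited values carry a scaling that enters every change given below, and some of the directions depend on it. Against the reads in genes, the library size behind the values was 0.615 and 0.631 in As(V) 1.5 h, 0.43 and 0.444 in As(V) 6 h, 1.078 and 1.02 in As(V) 24 h, and 0.952 to 1.004 in the mock libraries. Under this scaling the 19832 genes tested had a median log2 change of -0.09 (1.5 h), -0.12 (6 h) and -0.06 (24 h). Scaling by library totals instead moved these medians to -0.59, -1.01 and 0.03. Of the 98 called changes of members in As(V) against mock, 31 had a log2 change that moved by a factor of more than 1.5 under library totals. This factor is a ratio of log2 changes, so a large change can shift by as much without being counted. GSTU24 at 6 h, which moved from 8.53 to 7.33, is not among the 31. Members whose direction turned are named where they are described.

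Most members changed under arsenate. More tau members were called higher than lower at all 3 times, under the deposited scaling and under library totals. A change is a log2 difference of FPKM + 1 between As(V) and mock, fitted with limma over all 12 libraries, and it is called at an adjusted p under 0.05 over all genes tested. Of the 41 members 39 could be tested, 27 tau and 12 phi. GSTF5 (AT1G02940) was listed at 0 in all 12 libraries, and GSTU15 stayed at or under 1.49 FPKM. At 1.5 h 21 members were higher and 12 lower in As(V), against a background of 30.3% of all tested genes higher and 36.4% lower (66.7% in either direction). At 6 h 22 were higher and 12 lower, against 36.3% higher and 41.3% lower of all genes (77.6% in either direction). At 24 h 15 were higher and 16 lower, against 29.3% higher and 36.4% lower (65.7% in either direction). Under the deposited scaling the share of members called in either direction was 84.6%, 87.2% and 79.5% at the 3 times. It lay above the background each time, though most genes of the table were called as well. Library totals gave 19 members higher and 16 lower at 1.5 h, 17 and 17 at 6 h, and 17 and 15 at 24 h. With that scaling 15985, 17578 and 13349 of the 19832 genes tested were called in either direction at these times. The share of members called then lay slightly below that of all genes at 6 h, and above it at 1.5 h and 24 h. Shares of all genes higher and lower are not given for library totals, so the directions of members have no matching background there. The medians of all tested genes under that scaling were -0.59, -1.01 and 0.03, so an even split of members is not an even split against the table at the early times.

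The 2 classes are described side by side. Of the 27 tau members tested, 16 were higher and 9 lower at 1.5 h, 16 higher and 7 lower at 6 h, and 13 higher and 10 lower at 24 h. Their median log2 changes were 1.05 (1.5 h), 0.99 (6 h) and 0.22 (24 h). Of the 12 phi members tested, 5 were higher and 3 lower at 1.5 h, 6 higher and 5 lower at 6 h, and 2 higher and 6 lower at 24 h. Their median changes were 0.09 (1.5 h), 0.30 (6 h) and -0.25 (24 h). Members are not replicates of a condition, so no test was made between the classes. With library totals 14 tau members were higher and 9 lower at 1.5 h, 13 higher and 10 lower at 6 h, and 15 higher and 9 lower at 24 h, and their medians were 0.43 at 1.5 h and -0.01 at 6 h. Under library totals the phi counts were 5 higher and 7 lower at 1.5 h and 4 higher and 7 lower at 6 h. They stayed at 2 higher and 6 lower at 24 h. The phi medians were then -0.51 at 1.5 h and -0.86 at 6 h. All tested genes moved likewise, to medians of -0.59 at 1.5 h and -1.01 at 6 h, so the phi medians stayed near those of the table. Counts under library totals stand beside the larger numbers of all genes called under that scaling, given above without direction. Without As(V) 1.5 h replicate 1 the tau median at 1.5 h was 0.68, and without mock 24 h replicate 1 the phi median at 24 h was -0.75. The phi median at 1.5 h stayed near 0, at 0.05 without As(V) 1.5 h replicate 1, 0.04 without mock 1.5 h replicate 2 and 0.14 without mock 1.5 h replicate 1.

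**Figure D1:**
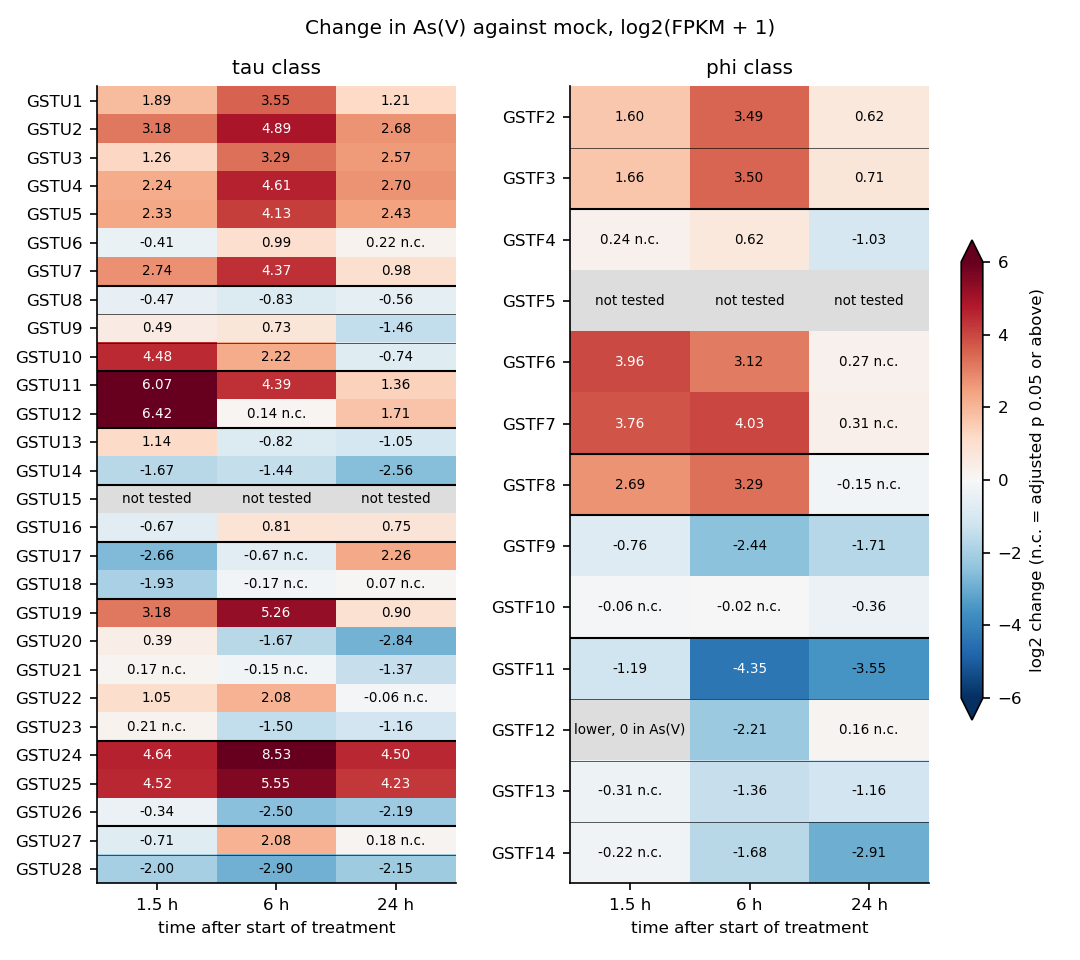
Log2 change of each member in As(V) against mock at 1.5 h, 6 h and 24 h, on the log2(FPKM + 1) scale. Cells give the change, with n.c. for not called and grey for no value, and lines separate tandem clusters and members without a tandem neighbour. GSTU24 has the highest value, 8.53 at 6 h, while GSTU26 of the same cluster is lower at all 3 times.

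By direction, 12 members were higher at all 3 times: GSTU1, GSTU2, GSTU3, GSTU4, GSTU5, GSTU7, GSTU11, GSTU19, GSTU24, GSTU25, GSTF2 and GSTF3. Lower at all 3 times were 6 members: GSTU8, GSTU14, GSTU26, GSTU28, GSTF9 and GSTF11. GSTU22, GSTF6, GSTF7 and GSTF8 were higher at 1.5 h and 6 h and not called at 24 h. GSTU9 and GSTU10 were higher at 1.5 h and 6 h and lower at 24 h, and GSTU13 and GSTU20 were higher at 1.5 h and lower at both later times. The other tested members followed 9 further patterns and are described with their neighbours.

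Summed over its members, the tau class held far more message under arsenate. The tau sum was 9625 and 9135 FPKM in As(V) 1.5 h, against 2152 and 1840 FPKM in mock 1.5 h. At 6 h it was 23889 and 20184 FPKM in As(V), against 1356 and 1323 FPKM in mock. At 24 h it was 1891 and 2324 FPKM in As(V), against 1185 and 1162 FPKM in mock. The groups did not overlap at any of the 3 times. As a share of all FPKM of a library, which does not depend on the scaling between libraries, the tau sum at 6 h was 1.46% and 1.26% in As(V) and 0.174% and 0.173% in mock.

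The phi class moved less in sum and changed its composition. Its sum was 7541 and 7106 FPKM in As(V) 1.5 h, against 3957 and 3888 FPKM in mock 1.5 h. At 6 h it was 6095 and 5652 FPKM in As(V), against 3803 and 3710 FPKM in mock, and at 24 h 2917 and 2927 FPKM in As(V), against 4272 and 4525 FPKM in mock. The order of the groups thus turned at 24 h. As a share of all FPKM of a library the phi sum at 6 h was 0.372% and 0.353% in As(V) and 0.489% and 0.485% in mock, so its direction at 6 h depends on the scaling. GSTF8 made up 36.6% to 50.8% of the phi sum in As(V) at 1.5 h and 6 h, whereas GSTF10 or GSTF9 was the leading phi member in every mock library and GSTF10 in both As(V) 24 h libraries.

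**Figure D2:**
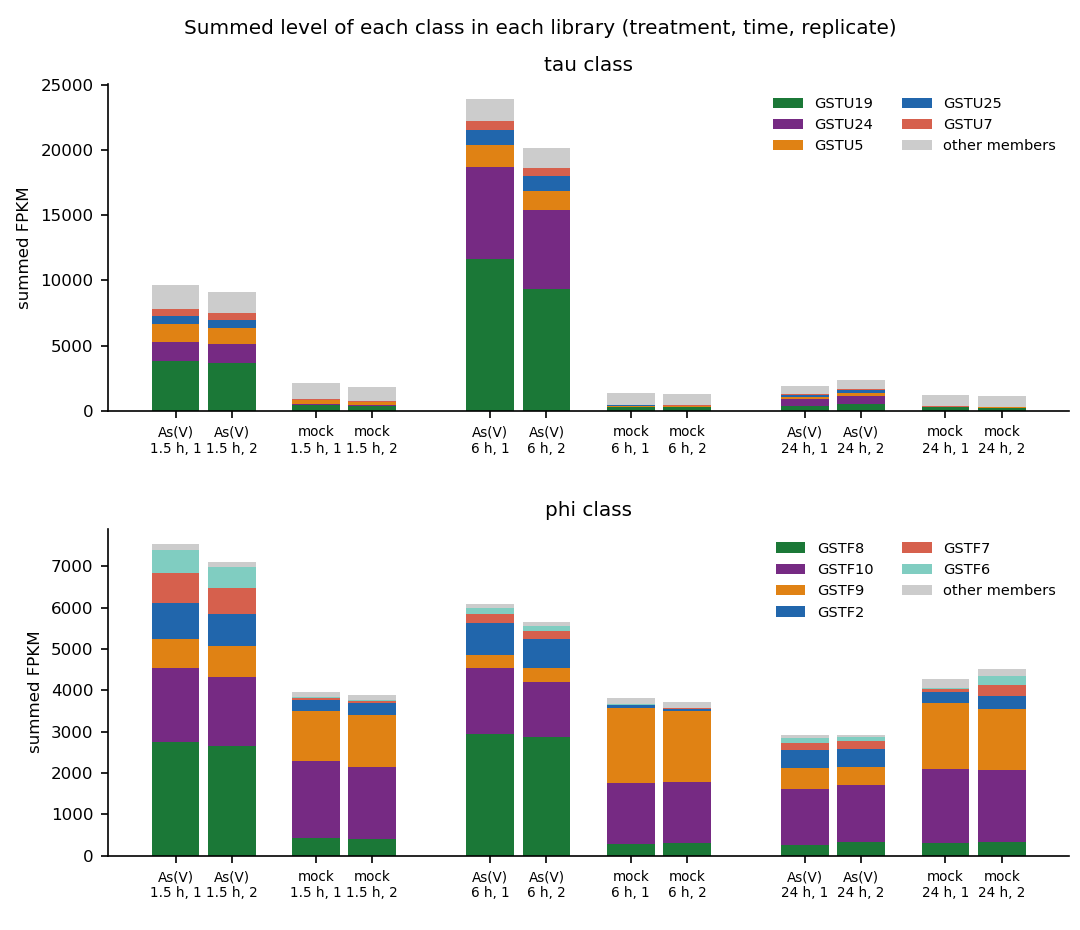
Summed FPKM of the 28 tau members (top) and 13 phi members (bottom) in each of the 12 libraries, stacked by the leading members, on linear axes that start at 0. At 6 h GSTU19 and GSTU24 fill most of the tau bars in As(V), 23889 and 20184 FPKM, while the mock bars reach 1356 and 1323 FPKM.

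Of the 41 members, 29 lie in 9 tandem clusters, taken here as members on a chromosome whose locus numbers are at most 50 apart, and 12 have no such neighbour. In the cluster GSTU24 to GSTU26 on chromosome 1, the first 2 members rose and the third fell. GSTU24 and GSTU25, which conjugate the explosive trinitrotoluene, share 79.4% of their coding bases, and GSTU26 shares 70.3% with GSTU24 and 70.4% with GSTU25. None of the 50-base windows of their exons occurs elsewhere in the genome, so reads of this length can be told apart by origin. The 300 bases before the starts of GSTU25 and GSTU26 are shown because these neighbours moved in opposite directions. The sequences come from RefSeq TAIR10.1 and are written 5′ to 3′ on the strand of the gene. Capitals mark TGACG or its reverse complement CGTCA, the core letters bound by TGA transcription factors. The window of GSTU25 lies at chr1:5871724-5872023 (plus strand) and that of GSTU26 at chr1:5874995-5875294 (plus strand).
GSTU25: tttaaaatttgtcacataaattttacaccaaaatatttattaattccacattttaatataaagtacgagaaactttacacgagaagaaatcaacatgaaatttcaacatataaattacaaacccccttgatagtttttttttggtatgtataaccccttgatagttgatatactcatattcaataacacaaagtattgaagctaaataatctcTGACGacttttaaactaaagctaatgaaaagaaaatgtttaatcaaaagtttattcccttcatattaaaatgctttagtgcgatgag
GSTU26: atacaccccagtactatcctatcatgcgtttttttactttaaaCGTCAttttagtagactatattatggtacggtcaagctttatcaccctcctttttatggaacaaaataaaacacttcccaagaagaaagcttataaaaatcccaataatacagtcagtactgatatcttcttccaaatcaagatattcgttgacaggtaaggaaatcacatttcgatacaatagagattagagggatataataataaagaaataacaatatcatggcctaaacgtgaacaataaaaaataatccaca
GSTU25 has TGACG with its first base 87 bases before the start, and GSTU26 has it 257 bases before the start. GSTU24 has it 169 bases before the start, in letters that also belong to an annotated exon of its neighbour AT1G17160, and is not shown.

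GSTU24 (AT1G17170) had 1443 and 1426 FPKM in As(V) 1.5 h, against 60.4 and 52.8 FPKM in mock 1.5 h. At 6 h GSTU24 had 7046 and 6019 FPKM in As(V), against 17.6 and 15.8 FPKM in mock, and at 24 h 491 and 672 FPKM in As(V), against 23.9 and 25.0 FPKM in mock. All As(V) libraries lay above all mock libraries. The log2 changes were 4.64 ± 0.14 (SE, limma adjusted p 4.5e-11) at 1.5 h, 8.53 ± 0.16 (adjusted p 4.1e-13) at 6 h and 4.5 ± 0.15 (adjusted p 5.5e-10) at 24 h. The effect at 6 h exceeded that at 1.5 h by 3.88 ± 0.21 (limma adjusted p 5.0e-08).

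GSTU25 (AT1G17180) followed GSTU24 with a flatter course. It had 598 and 616 FPKM in As(V) 1.5 h, against 32.5 and 19.8 FPKM in mock 1.5 h. At 6 h GSTU25 had 1161 and 1196 FPKM in As(V), against 26.1 and 22.4 FPKM in mock, and at 24 h 179 and 259 FPKM in As(V), against 9.46 and 11.7 FPKM in mock. The groups did not overlap at any time. The log2 changes were 4.52 ± 0.22, 5.55 ± 0.21 and 4.23 ± 0.25 in order of time, and the difference between 6 h and 1.5 h was 1.03 ± 0.30 (SE, limma adjusted p 0.019). The effects at 24 h and 1.5 h differed by -0.29 ± 0.33 (limma adjusted p 0.47), which the test did not call.

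GSTU26 (AT1G17190) was lower in As(V) throughout. It had 41.6 and 40.3 FPKM in As(V) 1.5 h, against 55.7 and 49.0 FPKM in mock 1.5 h. At 6 h GSTU26 had 25.2 and 16.6 FPKM in As(V), against 123 and 120.0 FPKM in mock, and at 24 h 11.4 and 10.1 FPKM in As(V), against 55.8 and 49.5 FPKM in mock. The groups did not overlap. The change at 1.5 h was small, -0.34 ± 0.13 (limma adjusted p 0.030), and was not called without As(V) 1.5 h replicate 1 (-0.37), without As(V) 1.5 h replicate 2 (-0.32) or without mock 1.5 h replicate 1 (-0.25). At 6 h and 24 h the changes were -2.50 ± 0.15 (limma adjusted p 3.0e-09) and -2.19 ± 0.14 (adjusted p 3.7e-08).

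The cluster GSTU19 to GSTU23 on chromosome 1 held the most abundant tau member beside members that fell. GSTU19, a transferase with high activity toward many test substrates, shares 76.2% of its coding bases with GSTU20, 78.3% with GSTU21, 78.1% with GSTU22 and 74.9% with GSTU23. GSTU20 binds the jasmonate-conjugating enzyme JAR1 and has been tied to the synthesis of aliphatic glucosinolates, sulphur-rich defence compounds. The 300 bases before GSTU19, GSTU20 and GSTU22 are shown for the contrast between these neighbours, with the same capitals and source as above. They lie at chr1:29488008-29488307, chr1:29485390-29485689 and chr1:29474004-29474303, all on the minus strand.
GSTU19: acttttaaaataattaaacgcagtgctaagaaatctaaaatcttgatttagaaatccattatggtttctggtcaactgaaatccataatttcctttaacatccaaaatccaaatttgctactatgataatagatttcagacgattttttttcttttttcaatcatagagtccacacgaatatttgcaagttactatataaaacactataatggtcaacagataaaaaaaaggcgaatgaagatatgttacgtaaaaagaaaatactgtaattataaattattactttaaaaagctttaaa
GSTU20: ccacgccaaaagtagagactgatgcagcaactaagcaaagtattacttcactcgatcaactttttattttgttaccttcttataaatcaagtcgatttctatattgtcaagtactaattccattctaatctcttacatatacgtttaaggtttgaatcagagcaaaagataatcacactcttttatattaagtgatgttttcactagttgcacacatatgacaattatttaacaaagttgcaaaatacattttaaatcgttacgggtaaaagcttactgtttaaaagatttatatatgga
GSTU22: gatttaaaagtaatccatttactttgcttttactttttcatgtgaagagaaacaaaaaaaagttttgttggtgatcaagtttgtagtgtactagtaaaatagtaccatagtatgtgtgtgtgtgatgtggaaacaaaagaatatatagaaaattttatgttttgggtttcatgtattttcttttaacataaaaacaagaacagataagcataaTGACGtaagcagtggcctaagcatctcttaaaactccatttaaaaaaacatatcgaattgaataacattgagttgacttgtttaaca
Only GSTU22 of these 3 has TGACG, 87 bases before its start. Shortly after the match GSTU22 has the 15 bases gcagtggcctaagca, which also follow the TGACG of GSTU24. They occur in 2 of 26687 promoter windows of this length, those of GSTU22 and GSTU24.

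GSTU19 (AT1G78380) had 3800 and 3689 FPKM in As(V) 1.5 h, against 454 and 373 FPKM in mock 1.5 h. At 6 h GSTU19 had 11674 and 9370 FPKM in As(V), against 278 and 264 FPKM in mock, and at 24 h 392 and 497 FPKM in As(V), against 259 and 214 FPKM in mock. Every As(V) library lay above the mock libraries of its time, but the gap at 24 h was small. The log2 changes were 3.18 ± 0.14 (SE, limma adjusted p 4.0e-09) at 1.5 h, 5.26 ± 0.14 (adjusted p 2.2e-11) at 6 h and 0.90 ± 0.15 (adjusted p 2.1e-04) at 24 h. The effect at 24 h differed from that at 6 h by -4.36 ± 0.20 (limma adjusted p 8.7e-09).

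GSTU20 (AT1G78370) went the other way with time. It had 52.1 and 55.8 FPKM in As(V) 1.5 h, against 42.6 and 39.2 FPKM in mock 1.5 h. At 6 h GSTU20 had 25.8 and 35.7 FPKM in As(V), against 102 and 95.5 FPKM in mock, and at 24 h 15.7 FPKM in both As(V) libraries, against 126 and 112 FPKM in mock. As(V) was thus above mock at 1.5 h and below it at 6 h and 24 h, without overlap. The change at 1.5 h, 0.39 ± 0.12 (limma adjusted p 0.0096), was not called without As(V) 1.5 h replicate 2 (0.34) or mock 1.5 h replicate 2 (0.33), and was -0.22 with library totals. At 6 h the change was -1.67 ± 0.13 (limma adjusted p 4.5e-08) and at 24 h -2.84 ± 0.12 (adjusted p 1.1e-09). Mock itself moved, with GSTU20 higher by 1.25 ± 0.11 at 6 h than at 1.5 h (limma adjusted p 7.2e-06).

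GSTU22 (AT1G78340) had 119 and 97.9 FPKM in As(V) 1.5 h, against 54.2 and 49.5 FPKM in mock 1.5 h. At 6 h GSTU22 had 54.8 and 52.9 FPKM in As(V), against 12.5 and 11.6 FPKM in mock, and at 24 h 13.8 and 14 FPKM in As(V), against 15.5 and 13.7 FPKM in mock. The groups were apart at the 2 early times and overlapped at 24 h. The log2 changes were 1.05 ± 0.10 (SE, limma adjusted p 6.8e-07), 2.08 ± 0.13 (adjusted p 6.0e-09) and -0.06 ± 0.13 (adjusted p 0.69) in order of time, and with library totals 0.43, 0.91 and 0.03. GSTU23 (AT1G78320) had 7.93 and 9.20 FPKM in As(V) 1.5 h, against 7.08 and 7.42 FPKM in mock 1.5 h. At 6 h and 24 h GSTU23 had 3.11 and 2.70 FPKM in As(V) 6 h, against 10.1 and 9.92 FPKM in mock 6 h, and 3.23 and 4.35 FPKM in As(V) 24 h, against 8.76 and 10.6 FPKM in mock 24 h. GSTU21 (AT1G78360) did not exceed 3.52 FPKM, with 1.32 and 1.3 FPKM in As(V) 1.5 h, against 0.976 and 1.13 FPKM in mock 1.5 h. At 6 h GSTU21 had 1.72 and 0.327 FPKM in As(V), against 0.573 and 1.83 FPKM in mock, and at 24 h 0.253 and 0.469 FPKM in As(V), against 3.52 and 1.70 FPKM in mock. GSTU23 was lower in As(V) at 6 h (-1.50 ± 0.17) and 24 h (-1.16 ± 0.16), and GSTU21 at 24 h (-1.37 ± 0.36, limma adjusted p 0.0050). At 1.5 h neither was called, and library totals turned GSTU23 from a change of 0.21 to -0.33 and GSTU21 from 0.17 to -0.14.

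The cluster GSTU1 to GSTU7, on chromosome 2 between bases 12617936 and 12632538 of TAIR10.1, held 7 members, of which GSTU6 alone was not higher at all 3 times. At 1.5 h 6 of 7 were higher, at 6 h all 7 and at 24 h 6. Its median log2 changes were 2.24 (1.5 h), 4.13 (6 h) and 2.43 (24 h). The members share 61.9% to 85.5% of their coding bases pairwise, and none of their 50-base exon windows occurs elsewhere in the genome.

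GSTU5 (AT2G29450) was the most abundant of these 7. It had 1422 and 1257 FPKM in As(V) 1.5 h, against 315 and 223 FPKM in mock 1.5 h. At 6 h GSTU5 had 1657 and 1434 FPKM in As(V), against 86.0 and 87.8 FPKM in mock, and at 24 h 150 and 185 FPKM in As(V), against 26.4 and 34.5 FPKM in mock. The As(V) libraries were above mock at each time. The changes were 2.33 ± 0.17 (SE, limma adjusted p 4.8e-07), 4.13 ± 0.17 (adjusted p 2.7e-09) and 2.43 ± 0.19 (adjusted p 1.2e-06) in order of time.

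GSTU7 (AT2G29420) rose and returned nearer to mock. It had 513 and 477 FPKM in As(V) 1.5 h, against 77.3 and 68.9 FPKM in mock 1.5 h. At 6 h GSTU7 had 710.0 and 629 FPKM in As(V), against 29.5 and 33.4 FPKM in mock, and at 24 h 47.3 and 53.8 FPKM in As(V), against 26.8 and 23.3 FPKM in mock. There was no overlap at any time, and the changes were 2.74 ± 0.10 (SE, limma adjusted p 6.6e-11), 4.37 ± 0.11 (adjusted p 7.7e-13) and 0.98 ± 0.12 (adjusted p 1.0e-05). The effect at 24 h differed from that at 6 h by -3.38 ± 0.16 (limma adjusted p 1.8e-09).

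GSTU4 (AT2G29460) had 141 and 132 FPKM in As(V) 1.5 h, against 29.3 and 27.0 FPKM in mock 1.5 h. At 6 h GSTU4 had 230.0 and 159 FPKM in As(V), against 7.78 and 6.06 FPKM in mock, and at 24 h 61 and 54.6 FPKM in As(V), against 7.18 and 9.02 FPKM in mock. The groups stood apart, with changes of 2.24 ± 0.16, 4.61 ± 0.20 and 2.70 ± 0.20 (SE, limma adjusted p 2.9e-07 at 24 h). GSTU1, shown here because its window holds TGACG at 77 and at 65 bases before the start, lies with that window at chr2:12632539-12632838 (minus strand).
GSTU1: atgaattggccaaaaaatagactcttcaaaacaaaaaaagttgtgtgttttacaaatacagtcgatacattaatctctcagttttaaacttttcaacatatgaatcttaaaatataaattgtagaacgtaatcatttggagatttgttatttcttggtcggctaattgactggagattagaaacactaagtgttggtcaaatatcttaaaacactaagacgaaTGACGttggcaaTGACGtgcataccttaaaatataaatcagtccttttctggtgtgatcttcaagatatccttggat
GSTU1 (AT2G29490) had 166 and 157 FPKM in As(V) 1.5 h, against 47.1 and 38.9 FPKM in mock 1.5 h, and 322 and 296 FPKM in As(V) 6 h, against 24.5 and 26.5 FPKM in mock 6 h. At 24 h GSTU1 had 56.8 and 74.3 FPKM in As(V), against 28.2 and 26.9 FPKM in mock. It was higher at all 3 times without overlap, by 1.89 ± 0.12, 3.55 ± 0.13 and 1.21 ± 0.13 log2 units (SE, limma adjusted p 2.8e-06 at 24 h).

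GSTU2 and GSTU3 were the least abundant of the 7 in mock roots. GSTU2 (AT2G29480) had 31.2 and 41.5 FPKM in As(V) 1.5 h, against 4.15 and 2.22 FPKM in mock 1.5 h, and 70.6 and 73.3 FPKM in As(V) 6 h, against 0.891 and 2.20 FPKM in mock 6 h. At 24 h GSTU2 had 12.8 and 16.1 FPKM in As(V), against 1.77 and 1.06 FPKM in mock. Its changes were 3.18 ± 0.25, 4.89 ± 0.26 and 2.68 ± 0.28 (SE, limma adjusted p 3.5e-06 at 24 h), and the groups did not overlap. Of its 951 exon bases, 669 overlap AT2G29485 on the opposite strand. GSTU3 (AT2G29470) had 6.21 and 2.23 FPKM in As(V) 1.5 h, against 1.39 and 0.693 FPKM in mock 1.5 h, and 6.49 and 7.47 FPKM in As(V) 24 h, against 0.290 and 0.405 FPKM in mock 24 h. GSTU3 had 14 and 10.5 FPKM in As(V) 6 h, against 0.408 and 0.280 FPKM in mock 6 h, a change of 3.29 ± 0.33 (limma adjusted p 1.4e-06). Its change at 1.5 h, 1.26 ± 0.33, was 0.68 and not called without As(V) 1.5 h replicate 1. Its As(V) libraries lay above mock at all 3 times.

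GSTU6 (AT2G29440) was the exception in this cluster, although it shares 83.1% of its coding bases with GSTU5. It had 92.6 and 82.0 FPKM in As(V) 1.5 h, against 125 and 108 FPKM in mock 1.5 h. At 6 h GSTU6 had 137 and 143 FPKM in As(V), against 70.7 and 69.7 FPKM in mock, and at 24 h 38.0 and 35.4 FPKM in As(V), against 32.2 and 30.6 FPKM in mock. It was below mock at 1.5 h (-0.41 ± 0.09, limma adjusted p 0.0012), above it at 6 h (0.99 ± 0.09, adjusted p 2.5e-07), and not called at 24 h (0.22 ± 0.10, adjusted p 0.064). With library totals the change at 6 h was -0.20. Opposite-strand genes overlap 398 of the 1333 exon bases of GSTU6 (AT2G29430, at 0 to 19.2 FPKM) and 559 of the 887 of GSTU7 (the non-coding AT2G08340).

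**Figure D3:**
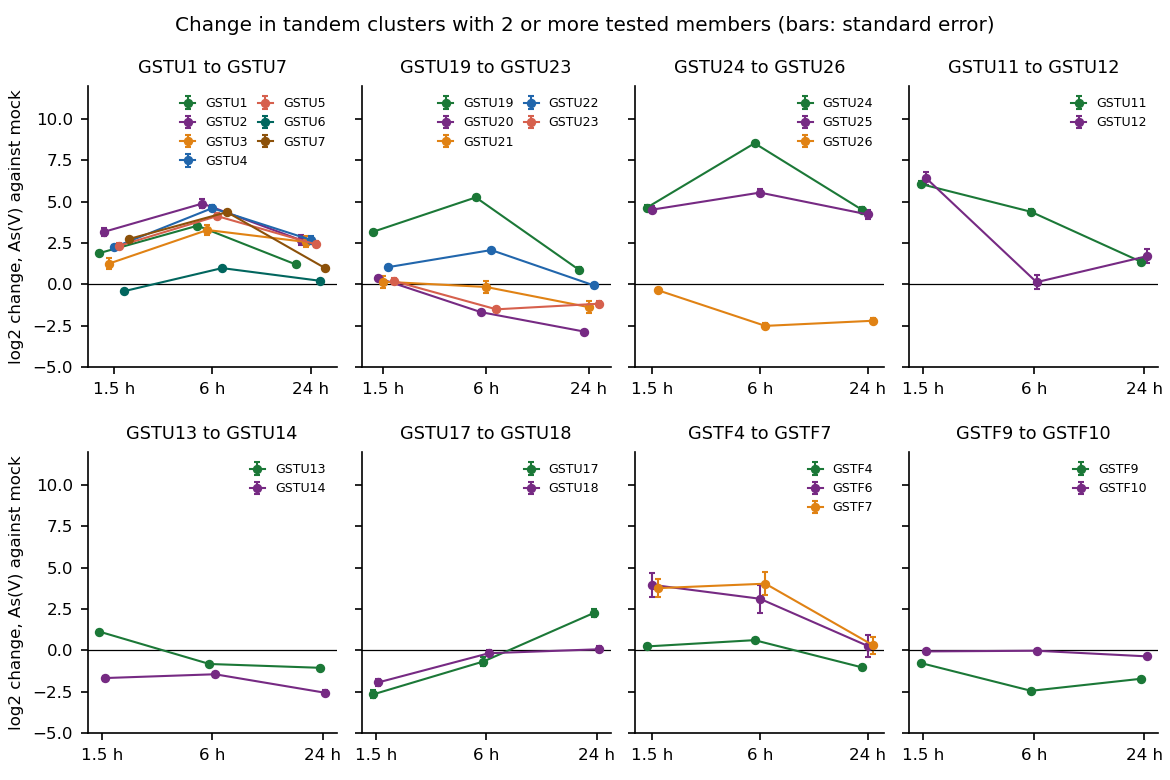
Log2 change in As(V) against mock (vertical axis, log2(FPKM + 1) scale) at the 3 times for the tested members of 8 tandem clusters, with bars for the standard error; times are evenly spaced. GSTU24 and GSTU25 lie above 4 at all times while GSTU26 lies below 0, and GSTU11 and GSTU12 part at 6 h.

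GSTU11 and GSTU12 on chromosome 1 were nearly silent in mock roots at 1.5 h. GSTU11 (AT1G69930) had 131 and 121 FPKM in As(V) 1.5 h, against 0.985 and 0.803 FPKM in mock 1.5 h. At 6 h GSTU11 had 77.7 and 74.3 FPKM in As(V), against 1.97 and 3.53 FPKM in mock, and at 24 h 4.04 and 5.0 FPKM in As(V), against 1.27 and 1.02 FPKM in mock. It was above mock each time, with changes of 6.07 ± 0.19 (SE, limma adjusted p 1.6e-11), 4.39 ± 0.16 (adjusted p 3.2e-11) and 1.36 ± 0.21 (adjusted p 7.9e-05).

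GSTU12 (AT1G69920) was higher at 1.5 h and 24 h but not called at 6 h. It had 168 and 129 FPKM in As(V) 1.5 h, against 0.728 and 0.725 FPKM in mock 1.5 h, and 4.63 and 3.77 FPKM in As(V) 6 h, against 3.57 and 3.85 FPKM in mock 6 h. At 24 h GSTU12 had 9.06 and 7.8 FPKM in As(V), against 0.607 and 4.17 FPKM in mock. The groups overlapped at 6 h alone. The change was 6.42 ± 0.39 at 1.5 h (SE, limma adjusted p 2.3e-07) and 0.14 ± 0.43 at 6 h (adjusted p 0.78, and -0.74, also not called, with library totals), and the effect at 6 h differed from that at 1.5 h by -6.29 ± 0.58 (adjusted p 1.4e-05). At 24 h it was 1.71 ± 0.41 (limma adjusted p 0.0042), and 0.86 without mock 24 h replicate 1. These 2 genes share 56.6% of their coding bases.

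The pair GSTU13 and GSTU14, which shares 82.0% of its coding bases, split at 1.5 h. GSTU13 (AT1G27130), which acts in indole glucosinolate turnover, had 277 and 251 FPKM in As(V) 1.5 h, against 118 and 121 FPKM in mock 1.5 h. At 6 h GSTU13 had 63.3 and 68.0 FPKM in As(V), against 112 and 120.0 FPKM in mock, and at 24 h 61 and 68.3 FPKM in As(V), against 135 FPKM in both mock libraries. It was higher at 1.5 h (1.14 ± 0.08, limma adjusted p 3.9e-08) and lower at 6 h (-0.82 ± 0.09) and 24 h (-1.05 ± 0.08), without overlap. Under library totals GSTU13 was at 0.52 at 1.5 h and -1.98 at 6 h. GSTU14 (AT1G27140) had 9.76 and 8.26 FPKM in As(V) 1.5 h, against 32.2 and 29.3 FPKM in mock 1.5 h, and 12.5 and 14.7 FPKM in As(V) 6 h, against 37.2 and 39.5 FPKM in mock 6 h. At 24 h GSTU14 had 4.90 and 4.54 FPKM in As(V), against 35.4 and 30.1 FPKM in mock. It was lower at all 3 times without overlap, with changes of -1.67 ± 0.15, -1.44 ± 0.14 and -2.56 ± 0.15 (SE, limma adjusted p 1.1e-08 at 24 h).

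GSTU17 and GSTU18, which overlap by 71 exon bases on the same strand, were lower in As(V) at 1.5 h. GSTU17 (AT1G10370), also called ERD9 and known from drought and light responses, had 29.3 and 18.4 FPKM in As(V) 1.5 h, against 174 and 133 FPKM in mock 1.5 h. At 6 h GSTU17 had 25.2 and 15.1 FPKM in As(V), against 32.5 and 30.6 FPKM in mock, and at 24 h 91.6 and 83.5 FPKM in As(V), against 20.5 and 14.8 FPKM in mock. As(V) was below mock at 1.5 h and 6 h and above it at 24 h. The change was -2.66 ± 0.24 at 1.5 h (SE, limma adjusted p 5.1e-06), -0.67 ± 0.28 at 6 h (adjusted p 0.050, not called) and 2.26 ± 0.23 at 24 h (adjusted p 1.3e-05). At 6 h it was called under other settings, at -1.02 without As(V) 6 h replicate 1 and at -1.77 with library totals. Its mock level also moved: its log2 change in mock was -2.23 ± 0.21 at 6 h against 1.5 h and -3.05 ± 0.23 at 24 h against 1.5 h. GSTU18 (AT1G10360) had 0.698 and 1.03 FPKM in As(V) 1.5 h, against 5.81 and 6.32 FPKM in mock 1.5 h, a change of -1.93 ± 0.19 (limma adjusted p 9.3e-07). At 6 h GSTU18 had 1.82 and 2.38 FPKM in As(V), against 2.46 and 2.51 FPKM in mock, and at 24 h 1.09 and 1.65 FPKM in As(V), against 1.17 and 1.31 FPKM in mock, and it was not called at either time. With library totals it was also called lower at 6 h, at -0.86.

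GSTU15 and GSTU16 were the lowest tau pair. GSTU15 (AT1G59670) had 1.49 and 0.550 FPKM in As(V) 1.5 h and at most 0.230 FPKM in any other library, and was not tested. GSTU16 (AT1G59700) had 2.71 and 3.94 FPKM in As(V) 1.5 h, against 6.33 and 5.34 FPKM in mock 1.5 h. At 6 h GSTU16 had 3.73 and 2.83 FPKM in As(V), against 1.32 and 1.55 FPKM in mock, and at 24 h 1.91 and 2.71 FPKM in As(V), against 0.659 and 1.3 FPKM in mock. It was lower at 1.5 h (-0.67 ± 0.20) and higher at 6 h (0.81 ± 0.23) and 24 h (0.75 ± 0.23). Its call was lost without As(V) 1.5 h replicate 1 (-0.46) or mock 1.5 h replicate 1 (-0.57), without As(V) 6 h replicate 1 (0.66), and without As(V) 24 h replicate 2 (0.58) or mock 24 h replicate 1 (0.51). With library totals the GSTU16 change at 6 h was -0.01.

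Among tau members with no tandem neighbour, GSTU10 (AT1G74590) had a short early rise. It had 189 and 180 FPKM in As(V) 1.5 h, against 8.72 and 6.10 FPKM in mock 1.5 h. At 6 h GSTU10 had 38.0 and 38.6 FPKM in As(V), against 6.62 and 8.28 FPKM in mock, and at 24 h 26.4 and 29.8 FPKM in As(V), against 33.9 and 66.4 FPKM in mock. As(V) was above mock at 1.5 h (4.48 ± 0.34, limma adjusted p 3.8e-06) and 6 h (2.22 ± 0.37, adjusted p 4.9e-04). At 24 h it was below, at -0.74 ± 0.27 (limma adjusted p 0.038). That last value rests on the mock libraries, which differ from each other: it was -1.21 without mock 24 h replicate 1 and -0.27, not called, without mock 24 h replicate 2. It was also not called without As(V) 24 h replicate 1 (-0.66) or replicate 2 (-0.82).

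GSTU28 (AT1G53680) was lower throughout. It had 5.99 and 7.72 FPKM in As(V) 1.5 h, against 29.5 and 31.0 FPKM in mock 1.5 h. At 6 h GSTU28 had 4.09 and 3.88 FPKM in As(V), against 40.6 and 32.1 FPKM in mock, and at 24 h 10.1 and 13.0 FPKM in As(V), against 54.5 and 53.9 FPKM in mock. The groups did not overlap, and the changes were -2.00 ± 0.18, -2.90 ± 0.19 and -2.15 ± 0.14 (SE, limma adjusted p 4.5e-08 at 24 h). GSTU8 (AT3G09270) was lower by smaller amounts, at -0.47 ± 0.11, -0.83 ± 0.11 and -0.56 ± 0.11, with 65.7 to 231 FPKM in As(V) and 92.3 to 313 FPKM in mock.

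GSTU27 and GSTU9 changed sides. GSTU27 (AT3G43800) had 70.1 and 65.9 FPKM in As(V) 1.5 h, against 108 and 117 FPKM in mock 1.5 h, and 328 and 341 FPKM in As(V) 6 h, against 76.8 and 80 FPKM in mock 6 h. It was lower at 1.5 h (-0.71 ± 0.08) and higher at 6 h (2.08 ± 0.08), and the difference of the effects was 2.79 ± 0.11 (SE, limma adjusted p 4.3e-09). At 24 h GSTU27 had 101 and 111 FPKM in As(V), against 94.4 and 92.3 FPKM in mock, and was not called (0.18 ± 0.08, limma adjusted p 0.059). It was called without As(V) 24 h replicate 1 (0.25). GSTU9 (AT5G62480) had 73.4 and 67.1 FPKM in As(V) 1.5 h, against 48.3 and 50.8 FPKM in mock 1.5 h, 77.1 and 84.2 FPKM in As(V) 6 h, against 48.4 and 48.2 FPKM in mock 6 h, and 33.4 and 32.0 FPKM in As(V) 24 h, against 90.3 and 93.0 FPKM in mock 24 h. Its changes in order of time were 0.49 ± 0.08, 0.73 ± 0.08 and -1.46 ± 0.08 (SE, limma adjusted p 8.9e-09 at 24 h). Under library totals GSTU9 turned to -0.12 at 1.5 h and -0.45 at 6 h.

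**Figure D4:**
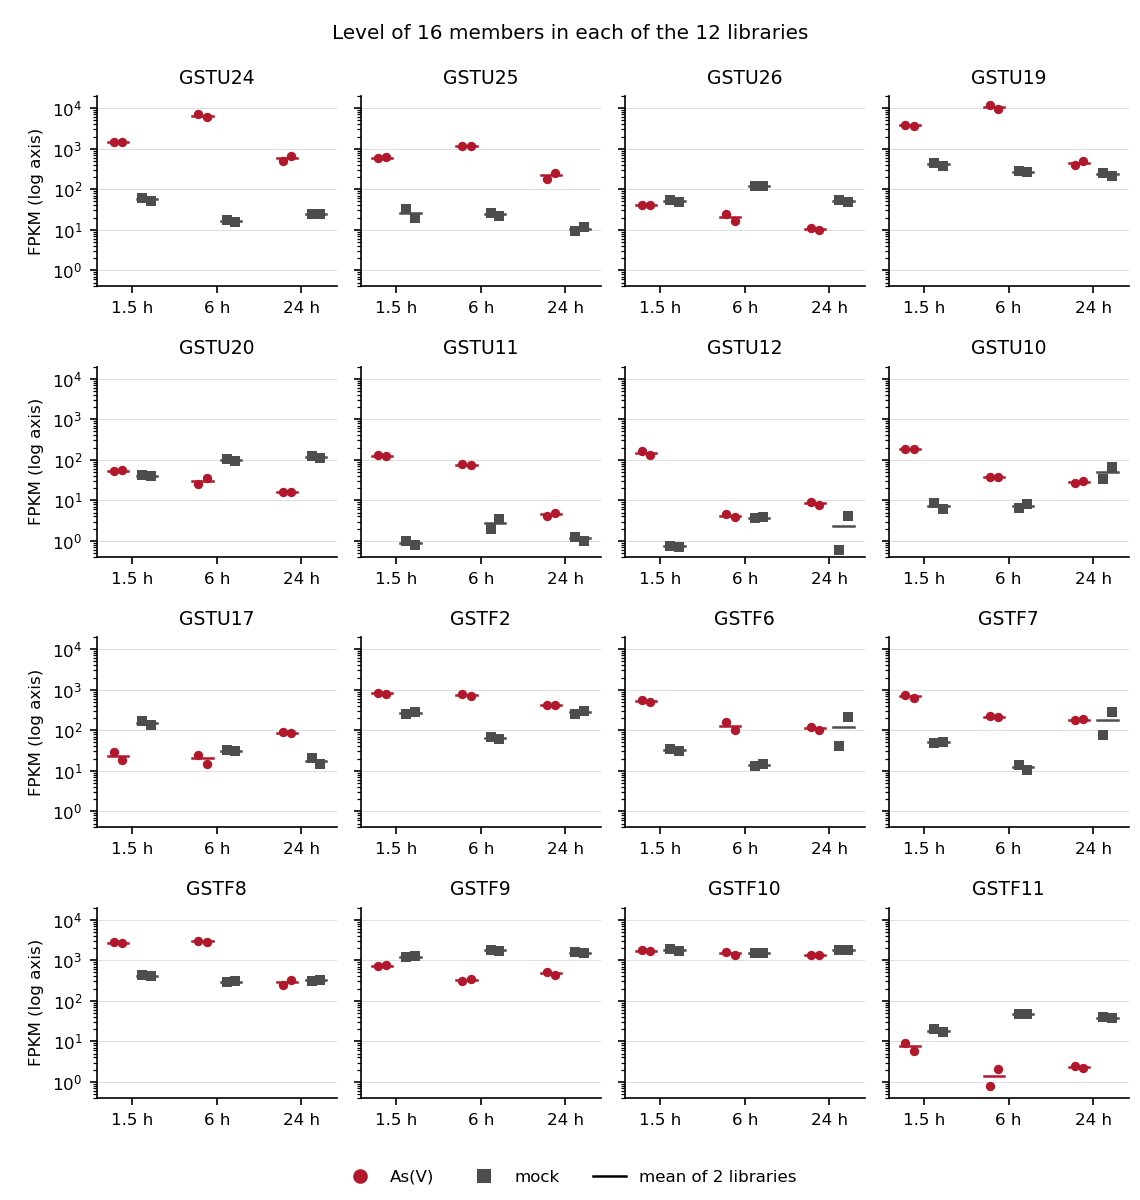
FPKM of 16 members in each of the 12 libraries, on a shared log axis, with As(V) circles left of mock squares at each time and a bar at the mean of the 2 libraries. GSTU24 and GSTU19 reach their highest levels in As(V) 6 h, GSTU12 in As(V) 1.5 h, and the mock 24 h squares of GSTF6 and GSTF7 lie far apart.

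Among the phi genes, GSTF8 was the most abundant member under arsenate at the early times. GSTF8 (AT2G47730), whose promoter is a classical reporter of hydrogen peroxide and salicylate, had 2761 and 2661 FPKM in As(V) 1.5 h, against 435 and 406 FPKM in mock 1.5 h. At 6 h GSTF8 had 2950 and 2869 FPKM in As(V), against 285 and 308 FPKM in mock, and at 24 h 250 and 330.0 FPKM in As(V), against 313 and 324 FPKM in mock. The groups were apart at 1.5 h and 6 h and overlapped at 24 h. The changes were 2.69 ± 0.10 (SE, limma adjusted p 1.3e-10), 3.29 ± 0.10 (adjusted p 6.0e-12) and -0.15 ± 0.10 (adjusted p 0.23), and without As(V) 24 h replicate 2 the last was -0.35 and called. The effect at 24 h differed from that at 6 h by -3.44 ± 0.15 (limma adjusted p 7.9e-10).

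GSTF2, which binds indole compounds such as the phytoalexin camalexin, and GSTF3 share 94.5% of their coding bases and had nearly the same changes at different levels. GSTF2 (AT4G02520) had 850.0 and 772 FPKM in As(V) 1.5 h, against 251 and 283 FPKM in mock 1.5 h. At 6 h GSTF2 had 765 and 690.0 FPKM in As(V), against 67.2 and 60.3 FPKM in mock, and at 24 h 427 and 429 FPKM in As(V), against 255 and 304 FPKM in mock. As(V) was above mock at each time. Its changes were 1.60 ± 0.10, 3.49 ± 0.10 and 0.62 ± 0.10 (SE, limma adjusted p 1.0e-04 at 24 h), and those of GSTF3 were 1.66 ± 0.14, 3.5 ± 0.17 and 0.71 ± 0.13 (adjusted p 2.9e-04 at 24 h). GSTF3 (AT2G02930) had 58.9 and 50.9 FPKM in As(V) 1.5 h, against 15.0 and 18.6 FPKM in mock 1.5 h, and 46.7 and 51.5 FPKM in As(V) 6 h, against 3.80 and 3.06 FPKM in mock 6 h. At 24 h GSTF3 had 30.8 and 31.3 FPKM in As(V), against 16.6 and 20.6 FPKM in mock. They lie on chromosomes 4 and 2 and share no 50-base exon window. Of the 1471 exon bases of GSTF2, 890 overlap the gene TOC159 on the opposite strand, which had 24.3 to 54.1 FPKM, and whether the counting used strand is not given in the sources used here.

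GSTF6, which takes part in camalexin synthesis, and its neighbour GSTF7 rose early, with a large spread. GSTF6 (AT1G02930) had 550.0 and 501 FPKM in As(V) 1.5 h, against 33.9 and 31.7 FPKM in mock 1.5 h. At 6 h GSTF6 had 158 and 104 FPKM in As(V), against 13.1 and 14.8 FPKM in mock, and at 24 h 120.0 and 103 FPKM in As(V), against 40.7 and 207 FPKM in mock. At 24 h the mock libraries lay on both sides of the As(V) libraries. The changes were 3.96 ± 0.74 (SE, limma adjusted p 0.0031), 3.12 ± 0.86 (adjusted p 0.015) and 0.27 ± 0.68 (adjusted p 0.75). The call at 6 h was lost with library totals (1.94, limma adjusted p 0.068) and without As(V) 6 h replicate 1 (2.82), mock 6 h replicate 1 (3.04) or mock 6 h replicate 2 (3.20). At 24 h the change was -0.89 without mock 24 h replicate 1 and 1.43 without mock 24 h replicate 2, and was called in both cases.

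GSTF7 (AT1G02920) had 749 and 635 FPKM in As(V) 1.5 h, against 49.0 and 51.1 FPKM in mock 1.5 h. At 6 h GSTF7 had 226 and 208 FPKM in As(V), against 14.3 and 10.6 FPKM in mock, and at 24 h 175 and 190.0 FPKM in As(V), against 77.3 and 279 FPKM in mock. It was apart from mock at the 2 early times, at 3.76 ± 0.56 (SE, limma adjusted p 9.9e-04) and 4.03 ± 0.69 (adjusted p 0.0016), and overlapped at 24 h (0.31 ± 0.53, adjusted p 0.63). Leaving out mock 24 h replicate 1 gave -0.61 and leaving out mock 24 h replicate 2 gave 1.23, both called. GSTF6 and GSTF7 share 94.3% of their coding bases, and 10.3% of the 50-base exon windows of GSTF6 and 10% of those of GSTF7 occur in the other gene, so some reads could not be told apart. Of the rest of this cluster, GSTF5 was listed at 0 throughout. GSTF4 (AT1G02950) was not called at 1.5 h (20.4 and 19.9 FPKM in As(V), against 17.5 and 16.2 FPKM in mock). It had 27.5 and 25.9 FPKM in As(V) 6 h, against 19.2 and 15.1 FPKM in mock 6 h, and 9.0 and 7.28 FPKM in As(V) 24 h, against 17.1 and 18.1 FPKM in mock 24 h. GSTF4 was higher at 6 h (0.62 ± 0.13, limma adjusted p 8.4e-04) and lower at 24 h (-1.03 ± 0.14, adjusted p 2.5e-05), and with library totals it was called lower at 1.5 h (-0.34, against 0.24 as deposited) and at 6 h (-0.51).

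GSTF9 and GSTF10, proposed to act in glucosinolate synthesis, were the leading phi genes of mock roots and parted under arsenate. GSTF9 (AT2G30860) had 702 and 758 FPKM in As(V) 1.5 h, against 1208 and 1257 FPKM in mock 1.5 h. At 6 h GSTF9 had 312 and 338 FPKM in As(V), against 1810 and 1712 FPKM in mock, and at 24 h 509 and 434 FPKM in As(V), against 1596 and 1484 FPKM in mock. It was below mock at every time, with changes of -0.76 ± 0.09 (SE, limma adjusted p 4.2e-06), -2.44 ± 0.09 (adjusted p 2.0e-11) and -1.71 ± 0.09 (adjusted p 3.8e-09). GSTF10 (AT2G30870), with 77.6% of coding bases shared, had 1790 and 1653 FPKM in As(V) 1.5 h, against 1864 and 1738 FPKM in mock 1.5 h, and 1593 and 1342 FPKM in As(V) 6 h, against 1479 and 1478 FPKM in mock 6 h. It overlapped mock at 1.5 h and 6 h (-0.06 ± 0.08 and -0.02 ± 0.08) and was lower at 24 h, with 1373 and 1384 FPKM in As(V), against 1785 and 1750 FPKM in mock (-0.36 ± 0.08, limma adjusted p 0.0018). With library totals GSTF10 was at -0.68 at 1.5 h and -1.21 at 6 h, both called, so its place beside mock at these times depends on the scaling.

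GSTF11 (AT3G03190), which acts with GSTU20 in the synthesis of aliphatic glucosinolates, had the lowest change of the phi members at 6 h on the log2(FPKM + 1) scale, which understates the changes of low members such as GSTF12. It had 9.09 and 5.91 FPKM in As(V) 1.5 h, against 19.7 and 16.6 FPKM in mock 1.5 h. At 6 h GSTF11 had 0.810 and 2.05 FPKM in As(V), against 46.1 and 47.7 FPKM in mock, and at 24 h 2.48 and 2.20 FPKM in As(V), against 39.4 and 37.1 FPKM in mock. The groups did not overlap, and the changes were -1.19 ± 0.20, -4.35 ± 0.22 and -3.55 ± 0.19 (SE, limma adjusted p 7.7e-09 at 24 h). All of its 934 exon bases overlap NAC045 on the opposite strand, which had 0.801 to 2.98 FPKM, in the range of the lowest GSTF11 values.

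GSTF14 (AT1G49860) had 38.3 and 38.0 FPKM in As(V) 1.5 h, against 41.5 and 48.2 FPKM in mock 1.5 h. Later GSTF14 had 11.1 and 13.8 FPKM in As(V) 6 h, against 43.3 and 40.5 FPKM in mock 6 h, and 15.3 and 11.1 FPKM in As(V) 24 h, against 119 and 91.3 FPKM in mock 24 h. It was not called at 1.5 h (-0.22 ± 0.16) and was lower at 6 h (-1.68 ± 0.20) and 24 h (-2.91 ± 0.16, limma adjusted p 1.3e-08). GSTF13 (AT3G62760), at 3.35 to 17.8 FPKM, was lower at 6 h (-1.36 ± 0.17) and 24 h (-1.16 ± 0.18). With library totals both were also called lower at 1.5 h, GSTF13 at -0.87 and GSTF14 at -0.82.

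GSTF12 (AT5G17220), also called TT19, is needed to bring anthocyanins to the vacuole. It was listed at 0 in both As(V) 1.5 h libraries, against 8.58 and 6.05 FPKM in mock 1.5 h. At 6 h it was at 0 and 0.266 FPKM in As(V), against 4.76 and 3.71 FPKM in mock, and at 24 h at 3.28 and 1.90 FPKM in As(V), against 2.53 and 1.84 FPKM in mock. GSTF12 was called lower at 1.5 h (limma adjusted p 6.8e-07) and 6 h (adjusted p 1.1e-05), and the groups overlapped at 24 h. Of its exon bases 108 overlap PSY on the opposite strand, which had 14.4 to 35.7 FPKM over the 12 libraries. Of 12 genes of the anthocyanin and flavonol pathway 5 could be tested, namely CHS, CHI, F3H, TT7 and FLS1, the early steps and the flavonol branch. All 5 were lower at 1.5 h and at 6 h, and at 24 h 2 were higher, 1 lower and 2 not called. With library totals the counts at these 3 times were the same. TT7, the flavonoid hydroxylase, had 2.18 and 1.93 FPKM in As(V) 1.5 h, against 92.6 and 109 FPKM in mock 1.5 h (-5.06 ± 0.20, limma adjusted p 1.8e-10). The other 7, the late anthocyanin steps and their regulators, did not exceed 0.984 FPKM in any library.

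Some members kept their direction and call under library totals, but their log2 change moved by a factor of more than 1.5. Among those higher in As(V), the change at 1.5 h became 0.79 for GSTU3, 0.98 for GSTF2 and 1.05 for GSTF3, and at 6 h 2.36 for GSTU1, 1.08 for GSTU10, 0.89 for GSTU27, 2.30 for GSTF2 and 2.10 for GSTF8. Of the lower ones, the change at 1.5 h became -1.02 for GSTU6, -1.08 for GSTU8, -1.11 for GSTU16, -0.94 for GSTU26, -1.32 for GSTU27 and -1.38 for GSTF9. At 6 h it became -2.01 for GSTU8, -2.51 for GSTU14, -2.81 for GSTU20, -2.28 for GSTU23, -2.32 for GSTF13 and -2.74 for GSTF14. At 24 h the call of GSTU10 was lost (-0.64), and GSTU6 (0.32) and GSTU27 (0.28) were called higher.

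The effect of arsenate differed between times for most members. Between 6 h and 1.5 h it differed for 30 of 39 members, 18 with a higher and 12 with a lower effect at 6 h, against 48.4% of all genes (27.5% higher and 20.9% lower). Between 24 h and 1.5 h it differed for 32, with 7 higher and 25 lower at 24 h, against 62.9% of all genes (29.5% higher and 33.4% lower). Between 24 h and 6 h it differed for 29, with 6 higher and 23 lower at 24 h, against 66.4% of all genes (29.8% higher and 36.6% lower). These 3 contrasts share libraries. At 24 h 11 of 12 phi members had a lower effect than at 1.5 h, with GSTF12 as the exception. Library totals left 6 of the 12 phi members called lower in this contrast, with GSTF2 at -0.26, GSTF3 and GSTF9 at -0.23 and GSTF13 at -0.20 no longer called, and GSTF10 turned to 0.43. Over both classes they gave 16 members higher and 15 lower between 6 h and 1.5 h, and 12 higher and 18 lower between 24 h and 1.5 h. Between 24 h and 6 h they gave 15 higher and 15 lower. Shares of all genes under library totals are not given for these 3 contrasts, so these counts, also those of the phi members, have no matching background. In the cluster GSTU1 to GSTU7 all 7 had a higher effect at 6 h than at 1.5 h. GSTU17 had the highest difference between 24 h and 1.5 h, 4.92 ± 0.33 (SE, limma adjusted p 9.5e-07), and GSTU10 the lowest, -5.22 ± 0.44 (adjusted p 1.0e-05).

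Mock roots also changed with time, and for the tau members this was mostly downward. In mock 6 h against mock 1.5 h 5 members were higher and 18 lower, against 8.35% higher and 10.7% lower of all genes (19.0% in either direction). In mock 24 h against mock 1.5 h 7 were higher and 17 lower, against 11.8% higher and 10.8% lower (22.6% in either direction). By class, tau had 3 higher and 13 lower at 6 h and 4 higher and 14 lower at 24 h. Phi had 2 higher and 5 lower at 6 h and 3 higher and 3 lower at 24 h. The median changes at 24 h were -0.62 for tau and 0.10 for phi. GSTU5 in mock had 26.4 and 34.5 FPKM at 24 h, against 315 and 223 FPKM at 1.5 h (-3.09 ± 0.19, limma adjusted p 1.6e-06). In the cluster GSTU1 to GSTU7 5 of 7 members were lower in mock at 6 h and 5 at 24 h. For GSTF2 the mock level at 6 h, 67.2 and 60.3 FPKM, lay below that at 1.5 h, 251 and 283 FPKM, and that at 24 h, 255 and 304 FPKM. Changes at 6 h and 24 h therefore stand against mock levels that differ from those at 1.5 h.

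Motif letters were counted in the 300 bases before the start of each member. TGACG, on either strand, was in 17 of 41 windows, 13 of 28 tau and 4 of 13 phi, and in 21.3% of 26687 windows of protein-coding genes. Of the members called higher at 6 h 13 of 22 held it, and of those called lower at 6 h 3 of 12. Among these 13, GSTU6 and GSTU9 turned to -0.20 and -0.45 at 6 h under library totals. The TGACG-holding windows of GSTU5, GSTU7, GSTU8, GSTU24, GSTF8 and GSTF12 also take in annotated exon bases of other genes. At least 2 copies were in 4 members, GSTU1, GSTU5, GSTU7 and GSTU9, and in 4.0% of all windows. TTGAC, the core letters bound by WRKY factors, was in 26 of 41 windows and in 50.4% of all windows, and it overlaps TGACG where a T precedes that motif. GAANNTTC, the core of the heat shock element, was in 7 of 41 and in 11.4% of all. GSTF6 and GSTF7 share the 15 bases caacaacgtcggtca, found in 2 of 26687 windows, those of these genes. These are descriptions of letters, and neighbouring members can share them by descent.

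The TGA factors, which bind TGACG, were measured in the same libraries, and are counted here together with SCL14 and the NAC factors ANAC102, ATAF1 and ANAC032. Of these 11 genes 5 were higher and 5 lower at 1.5 h, 7 higher and 4 lower at 6 h, and 5 higher and 4 lower at 24 h. Library totals gave 4 higher and 6 lower at 1.5 h, 4 higher and 5 lower at 6 h, and 6 higher and 3 lower at 24 h. Among the TGA factors themselves, TGA2 (-0.95 at 1.5 h and -1.09 at 6 h) and TGA6 (-0.58 and -0.60) were lower at the 2 early times, and TGA3 (-0.44, -1.08 and -0.76) and TGA4 (-1.36, -0.56 and -0.25) at all 3. TGA1 was lower at 1.5 h (-1.23) and 24 h (-0.81) and higher at 6 h (0.99), a rise that turned to -0.20 under library totals. TGA5 was higher at all 3 times (0.68, 1.13 and 0.67) but was at 0.09 at 1.5 h and level at 6 h under library totals. TGA7 was higher at 6 h (0.98, and -0.14 under library totals) and lower at 24 h (-0.81). SCL14, a partner of TGA factors in responses to foreign compounds, and the NAC factors ANAC102, ATAF1 and ANAC032 were higher at all 3 times. ANAC102 had 2378 and 2271 FPKM in As(V) 6 h, against 60.0 and 69.0 FPKM in mock 6 h (5.15 ± 0.12, limma adjusted p 1.0e-12). ATAF1 had 69.3 and 79.5 FPKM in As(V) 24 h, against 12.7 and 19.4 FPKM in mock 24 h (2.17 ± 0.14, limma adjusted p 3.1e-08). The As(V) and mock libraries of both genes stood apart.

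Glutathione transferases of other classes had medians near those of all genes under both scalings. Of 12 tested, 4 were higher and 4 lower at 1.5 h, 5 higher and 6 lower at 6 h, and 2 higher and 4 lower at 24 h, with medians of 0.05, -0.13 and -0.15. Library totals gave 3 higher and 8 lower at 1.5 h and again at 6 h, with medians of -0.53 and -1.03, and 3 higher and 4 lower at 24 h. DHAR2, a dehydroascorbate reductase, had 2113 and 1781 FPKM in As(V) 6 h, against 53.5 and 56.9 FPKM in mock 6 h (5.11 ± 0.13, limma adjusted p 1.8e-12). Its relative DHAR1 had 88.0 and 87.2 FPKM in As(V) 24 h, against 323 and 287 FPKM in mock 24 h (-1.79 ± 0.16, limma adjusted p 3.1e-06). GSTL1, of the lambda class, had 29.5 and 18.5 FPKM in As(V) 6 h, against 2.64 and 2.93 FPKM in mock 6 h (2.69 ± 0.28, limma adjusted p 3.8e-06). All 3 pairs of groups stood apart.

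Genes that supply glutathione or handle its conjugates had their own courses, and their counts depend on the scaling. Of 7 genes of glutathione supply 4 were higher and 3 lower at 1.5 h, 6 higher and 1 lower at 6 h, and 2 higher and 2 lower at 24 h, whereas library totals gave 2 higher and 4 lower at 1.5 h and at 6 h, and 2 higher and 1 lower at 24 h. The glutathione reductase GR1 had 383 and 428 FPKM in As(V) 24 h, against 136 and 131 FPKM in mock 24 h (1.59 ± 0.07, limma adjusted p 2.2e-09). Of 8 tested genes of conjugate processing 5 were higher and 3 lower at 1.5 h and at 6 h, and 1 was higher and 6 lower at 24 h, whereas library totals gave 2 higher and 3 lower at 6 h. GGCT2;1, which breaks down glutathione and so recycles its glutamate, had 86.6 and 66.0 FPKM in As(V) 6 h, against 1.01 and 1.50 FPKM in mock 6 h (5.10 ± 0.20, limma adjusted p 4.9e-11).

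Of 10 tested ABCC transporters 5 were higher and 2 lower at 1.5 h, all 10 higher at 6 h, and 3 higher and 6 lower at 24 h. Library totals gave 4 of these transporters higher and 5 lower at 1.5 h, and 5 higher and 3 lower at 6 h. ABCC1, which carries phytochelatin complexes into the vacuole, had 503 and 462 FPKM in As(V) 6 h, against 40.6 FPKM in both mock 6 h libraries (3.54 ± 0.07, limma adjusted p 2.2e-13). The changes of ABCC3 (5.37) and ABCC2 (4.14) at 6 h were larger. By 24 h ABCC1 was lower in As(V) (-0.28), while ABCC3 (2.10) and ABCC2 (0.91) were still higher. Of 7 tested glutathione peroxidase-like genes 4 were higher and none lower at 1.5 h, 4 higher and 1 lower at 6 h, and 1 higher and 4 lower at 24 h, whereas library totals gave 1 higher and 5 lower at 1.5 h, 3 higher and 3 lower at 6 h, and 2 higher and 3 lower at 24 h. GPXL1 had 244 and 270.0 FPKM in As(V) 6 h, against 21.2 and 20.5 FPKM in mock 6 h (3.56 ± 0.09, limma adjusted p 1.1e-12). These counts are descriptions beside the shares of all genes given above. Those under library totals, here and for the other lists, belong beside the larger numbers of all genes called under that scaling. As these numbers are given without direction, higher and lower counts under library totals have no matching background.

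Root marker genes, set beside these counts, were 1 higher and 8 lower of 10 at 1.5 h, 2 higher and 6 lower at 6 h, and none higher and 8 lower at 24 h. Library totals gave none higher and 9 lower at 1.5 h and at 6 h, and 1 higher and 7 lower at 24 h. Of 7 tested leaf markers none was called at 1.5 h, 1 was higher at 6 h and 2 were lower at 24 h, whereas library totals gave 1 lower at 1.5 h and 1 lower at 6 h. The replicates differed most in leaf marker sum in As(V) 1.5 h, at 69.5 and 299 FPKM, while the tau sums of these 2 libraries were 9625 and 9135 FPKM.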

How the data were processed

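Root mRNA of 12 libraries was sequenced from stranded libraries with single-end reads of 50 bp, per the labels' protocols. The submitters' processing notes name Trim Galore, STAR 2.5.4, HTSeq 0.6.0, edgeR and TAIR10, with no roles. The deposited values were taken as FPKM from their dependence on gene length. The scaling factors behind them, and whether counting used strand, are not given in the sources used here. All 12 columns of the whole-series table were used, and they matched the library files with a largest difference of 0.

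Reads were estimated from the spacing of low values, found for 9857 of 23156 genes (42.6%), and a length relation seen in 1172 of 9523 genes gave reads for 32920 genes. These estimates served as precision weights, as a filter and for library totals only. Genes with at least 1 FPKM and 10 estimated reads in at least 2 libraries were tested. Values were analysed as log2(FPKM + 1), which understates changes of low genes, with limma 3.58.1 in R 4.3.3, precision weights, robust moderation, 1 coefficient per group, 6 residual degrees of freedom and Benjamini-Hochberg adjustment over 19832 genes. The procedure was tested on simulated data in which a small part of the genes changed, at 6 h only, and the scaling was taken as right. That test therefore does not cover changes in most genes or the choice of scaling. Sequences and positions came from RefSeq TAIR10.1, read with Biopython 1.88. Shared runs of at least 14 bases with at least 4 G or C were sought in 820 pairs of windows. Members named with every library's value were, per time and class, the 3 highest and 3 lowest called changes at a mean of at least 5 FPKM, plus cluster members. From other lists up to 3 of the called genes with the largest change per time were named. SCL14 and the TGA factors were named after their values were seen. Members and lists were chosen with earlier results of these data known. Alternatives covered pseudocounts of 0.1 and 5, the filter, weights, scaling, a replicate block, fewer libraries in the fit and leaving out each library.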

Additional observations from a re-analysis of the deposited data

Results flagged for a closer look

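The effect of arsenate was tested for a difference between times, and it differed for 30 members between 6 h and 1.5 h, for 32 between 24 h and 1.5 h, and for 29 between 24 h and 6 h (limma, adjusted p under 0.05 over all genes). Members whose change was called in opposite directions at the times compared are listed with the difference of the log2 changes, later minus earlier.

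Between 6 h and 1.5 h, GSTU6 (1.39), GSTU16 (1.48) and GSTU27 (2.79) were lower in As(V) at 1.5 h and higher at 6 h, whereas GSTU13 (-1.95) and GSTU20 (-2.06) were higher at 1.5 h and lower at 6 h. Between 24 h and 1.5 h, GSTU16 (1.42) and GSTU17 (4.92) were lower at 1.5 h and higher at 24 h. GSTU9 (-1.95), GSTU10 (-5.22), GSTU13 (-2.19) and GSTU20 (-3.23) were higher at 1.5 h and lower at 24 h. Between 24 h and 6 h, GSTU9 (-2.19), GSTU10 (-2.96) and GSTF4 (-1.65) were higher at 6 h and lower at 24 h. With library totals the early rises of GSTU9 and GSTU20, and those of GSTU6, GSTU9, GSTU16 and GSTF4 at 6 h, turned to values below 0. The fall of GSTU10 at 24 h was then not called (-0.64). Leaving out single libraries also lost the calls of GSTU10 at 24 h, GSTU20 at 1.5 h and GSTU16 at each time, as described above.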

How the results depend on the processing

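Of the changes of single members in As(V) against mock, recomputed under each alternative, 1431 kept their direction and side of the threshold, 28 passed it newly, 27 no longer passed it and 15 reversed. Another 18 turned in sign while called in neither case. The cause was not tested. With library totals the tau medians were 0.43 (1.5 h), -0.01 (6 h) and 0.32 (24 h), and the phi median -0.51 at 1.5 h and -0.86 at 6 h. With equal FPKM sums the tau median was 0.45, 0.08 and 0.39, and the phi median -0.50 at 1.5 h and -0.74 at 6 h. Medians of all tested genes were -0.59, -1.01 and 0.03 with library totals, and -0.60, -0.98 and 0.09 with equal FPKM sums. Median-of-ratios scaling gave tau 0.94 at 6 h and 0.29 at 24 h, and phi 0.26 at 6 h. A pseudocount of 5 gave tau 0.58 at 1.5 h and 0.95 at 6 h and phi 0.25 at 6 h, and a pseudocount of 0.1 gave tau 1.13 and phi 0.31 at 6 h. Without the filter on low values the tau median at 6 h was 0.90, and with only the libraries compared 1.53.

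Leaving out each library gave tau medians of 0.68 to 1.19 at 1.5 h, 0.96 to 1.02 at 6 h and 0.18 to 0.27 at 24 h, and phi medians of 0.04 to 0.14, 0.22 to 0.38 and -0.75 to -0.24. Members higher then numbered 20 to 21, 20 to 22 and 14 to 17, and members lower 10 to 12, 12 to 13 and 15 to 18. Without mock 24 h replicate 1, GSTF6 reversed to -0.89 and GSTF7 to -0.61 at 24 h, and without mock 24 h replicate 2 they were called at 1.43 and 1.23.

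Reversals under the scaling are given for library totals, then equal FPKM sums. At 1.5 h they were GSTU9 (-0.12, -0.10), GSTU20 (-0.22, -0.20) and GSTF4 (-0.34, -0.33). At 6 h they were GSTU6 (-0.20, -0.07), GSTU9 (-0.45, -0.32) and GSTF4 (-0.51, -0.40), and GSTU16 with library totals (-0.01). For 6 h minus 1.5 h they were GSTF10 (-0.53, -0.42), and GSTU9 with library totals (-0.33). For 24 h minus 1.5 h they were GSTU1 (0.04, 0.09), GSTU8 (0.63, 0.68), GSTU24 (0.58, 0.64) and GSTF10 (0.43, 0.48), and GSTU28 with equal sums (0.55). For 24 h minus 6 h they were GSTU6 (0.52, 0.46), GSTU13 (1.04, 0.99), GSTU16 (0.82, 0.87), GSTU20 (0.07, 0.01) and GSTF10 (0.96, 0.90), and GSTU14 with library totals (0.05).

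With the replicate number as a block, 21 members were higher and 12 lower at 1.5 h, 22 and 13 at 6 h, and 16 and 16 at 24 h. The deviations of same-numbered libraries correlated at -0.07 to 0.12, so no strong deviation was shared by replicate number. Whether same-numbered libraries came from a shared culture or batch cannot be read from these values. The counts of the classes and of the other pathway lists under library totals were added after seeing the data. Depth limits members that stayed at or near 0, such as GSTU15 and GSTF5.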
